A study of Mus musculus with 18 samples.

Results

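The genes described here encode 9 enzymes of amino acid breakdown, among 18193 genes that the arrays measured with a probe set of their own. Hal, Uroc1 and Ftcd act on histidine, Tdo2 and Kynu on tryptophan, Tat and Hpd on tyrosine, and Got1 and Bcat1 move amino groups between amino acids and keto acids. The 9 were taken by name as a list of catabolic enzymes. That list was drawn up with earlier results of these data known, so counts of called enzymes against the share of all genes are descriptions and not an independent test. The probe set of each was chosen by its measured values: among the sets annotated to that gene alone, it is the one with the highest mean over the 18 arrays. That choice mattered for 4 of them, because Uroc1 and Kynu have 2 such sets and Tdo2 and Bcat1 have 3. The means over 18 arrays of the sets used and the next sets were 9.25 and 7.62 for Uroc1, 8.40 and 2.95 for Kynu, 8.62 and 8.17 for Tdo2, and 5.30 and 2.84 for Bcat1.

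Male C57BL6 mice, an inbred strain, received D-galactosamine (GalN) into the abdomen at 4.5 g per kg. GalN is an amino sugar that injures hepatocytes by trapping their uridine nucleotides. Liver and kidney were taken from GalN mice at 24 h and at 48 h, and from sham mice at 24 h after saline, with 3 arrays for each organ and group. The groups were therefore liver 24 h, liver 48 h and liver sham, and kidney 24 h, kidney 48 h and kidney sham, with arrays named A, B and C in each. Sham mice were taken at 24 h only, so a comparison of 48 h with sham also sets different times after injection against each other. Both GalN groups of an organ are set against the same 3 sham arrays. The organs were perfused in place before RNA was taken, the mice carried no stated genetic change, and their age is not given in the sources used here.

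Surplus amino acids are degraded mainly in the liver, in chains of enzymes that remove the amino group and pass the carbon skeleton on to the citric acid cycle, to glucose or to ketone bodies. Histidine leaves through histidine ammonia-lyase (Hal), urocanate hydratase (Uroc1), imidazolonepropionase (Amdhd1) and the folate-dependent enzyme formimidoyltransferase cyclodeaminase (Ftcd). Tryptophan 2,3-dioxygenase (Tdo2) opens the kynurenine pathway, which also leads to nicotinamide nucleotides, and kynureninase (Kynu) cleaves its intermediates. Tyrosine aminotransferase (Tat), known in liver for its induction by glucocorticoids, starts tyrosine breakdown, and 4-hydroxyphenylpyruvate dioxygenase (Hpd) follows it.

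Values are log2 gcRMA expression values, so a difference of 1 is a 2-fold difference in signal. The lowest value on the arrays was 2.21 and the array medians lay between 2.36 and 2.43. A value less than 1 above the lowest is called the floor here, and a reading that recurs exactly in another array of the same probe set is also treated as background. A fold change against such readings is a lower bound, written as "at least". A gene is called changed when the Benjamini-Hochberg adjusted p of limma's two-sided test over all genes of the organ was below 0.05. Median centring aligned the arrays on the median of the genes above the floor on every array, not on the array medians given above. This centring moved the median change of all genes tested to -0.16 in liver at 24 h, against 0.005 as deposited. The median change moved to -0.11 in liver at 48 h, against 0.03, and to -0.16 between sham kidney and sham liver, against 0.05. The share of called genes that were higher became 43.2% in liver at 24 h and 40.3% in liver at 48 h with centring, against 54.5% and 61.3% as deposited. It became 52% in kidney at 24 h with quantile normalization, against 41.6%, and 47.9% (quantile) or 45.1% (centring) between sham kidney and sham liver, against 60.3%. No called change of an enzyme described here turned its direction under either scaling. All 8 measured kidney tubule markers were higher in sham kidney than in sham liver and all 7 measured hepatocyte markers were lower. Of the 7 hepatocyte genes, F2 and Ahsg were at the floor in every kidney group. Of the 8 tubule genes, Slc34a1, Slc12a1 and Lrp2 were at the floor in every liver group. Other tubule genes passed the floor on some liver arrays. Among them Kap read 7.34 in liver 24 h array A and 4.12 in liver 48 h array C, against 2.23 to 3.09 on the other liver arrays. Liver 48 h array C stood apart from the other 17 arrays, with a gap between the 3' and 5' actin control sets of 2.56, against 1.48 to 2.02 in the others.

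In liver at 24 h, 6 of the 9 enzymes fell and 0 rose. Hal, Ftcd, Kynu, Tdo2, Hpd and Got1 were lower than in sham liver, by 1.18-fold for Hpd up to 24.6-fold for Kynu. Of all 12071 genes tested in liver, 32.9% were called at 24 h, 17.9% higher and 15.0% lower, and the median change was -1.12 over the 9 enzymes and 0.005 over all genes tested. The arrays of the GalN and sham groups did not overlap for 7 of the 9, the 6 that fell and Tat, against 49.8% of all genes tested. Leaving out 1 array at a time gave 4 to 7 called enzymes, and Hal, Ftcd, Kynu and Got1 were called in each of the 20 alternative settings tried. In whole-organ RNA, fewer cells of a type and less RNA per cell cannot be told apart. At 24 h 0 of 7 hepatocyte markers were called, and their summed level was 18.46 to 18.52 in liver at 24 h and 18.55 to 18.59 in sham liver (log2). That sum is made mostly of Alb, Apoa1 and Ttr, which read 15.80 to 16.56 in both groups, near the highest value on the arrays (16.93). The hepatocyte marker Apob, an apolipoprotein, read 13.47, 13.41 and 13.45 at 24 h and 14.18, 14.65 and 14.91 in sham liver, groups that did not overlap, although it was not called. The remaining hepatocyte markers differed less. Ahsg read 15.52 to 15.65 at 24 h and 15.71 to 15.79 in sham liver, Serpinc1 14.89 to 14.94 and 14.95 to 14.99, and F2 14.67 to 14.70 and 14.70 to 14.73. In the same livers 6 of 10 macrophage markers were called higher (summed level 14.27 to 14.44 at 24 h and 12.79 to 13.39 in sham liver), as were 6 of 8 endothelial markers (11.10 to 12.11 at 24 h and 10.41 to 10.69 in sham liver). Of the stellate cell and fibroblast markers 3 of 8 were called higher, Dcn, Lrat and Pdgfrb, and the summed level of the 8 was 13.03 to 13.09 at 24 h and 11.96 to 12.64 in sham liver. The part of these cell types in the falls was not tested.

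In liver at 48 h, 2 of the 9 enzymes were lower than in sham liver, Uroc1 and Hpd, and 0 were higher. Of all genes tested, 10.2% were called at 48 h, 6.24% higher and 3.94% lower, and the median change was -0.61 over the 9 enzymes and 0.03 over all genes. The groups did not overlap for 5 of the 9, against 28.5% of all genes. The count of 2 became 1 without 48 h array A or B or without sham array A, B or C. Between the GalN groups, 4 enzymes were higher at 48 h than at 24 h (Hal, Kynu, Tdo2 and Got1) and 2 were lower (Uroc1 and Hpd), where 27.8% of all genes were called, 14.6% higher and 13.1% lower. The arrays of these groups did not overlap for 6 of the 9, against 40.8% of all genes. Without 48 h array C, which stood apart, 2 enzymes were called against sham and 6 against 24 h. At 48 h 4 of 7 hepatocyte markers were lower than in sham liver (Ahsg, F2, Serpinc1 and Ttr, by 0.28 to 0.54 on the log2 scale), with a summed level of 18.21 to 18.40 at 48 h and 18.55 to 18.59 in sham liver. Markers of other cell types were still higher than in sham at 48 h: 3 of 10 macrophage markers (C1qb by 1.12, Cd5l by 1.21 and Cd68, at least 5.88-fold), with a summed level of 13.92 to 14.17 at 48 h and 12.79 to 13.39 in sham liver, and 1 of 8 endothelial markers (Lyve1, by 3.24). The part of these markers in the values of the enzymes was not tested.

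**Figure D1:**
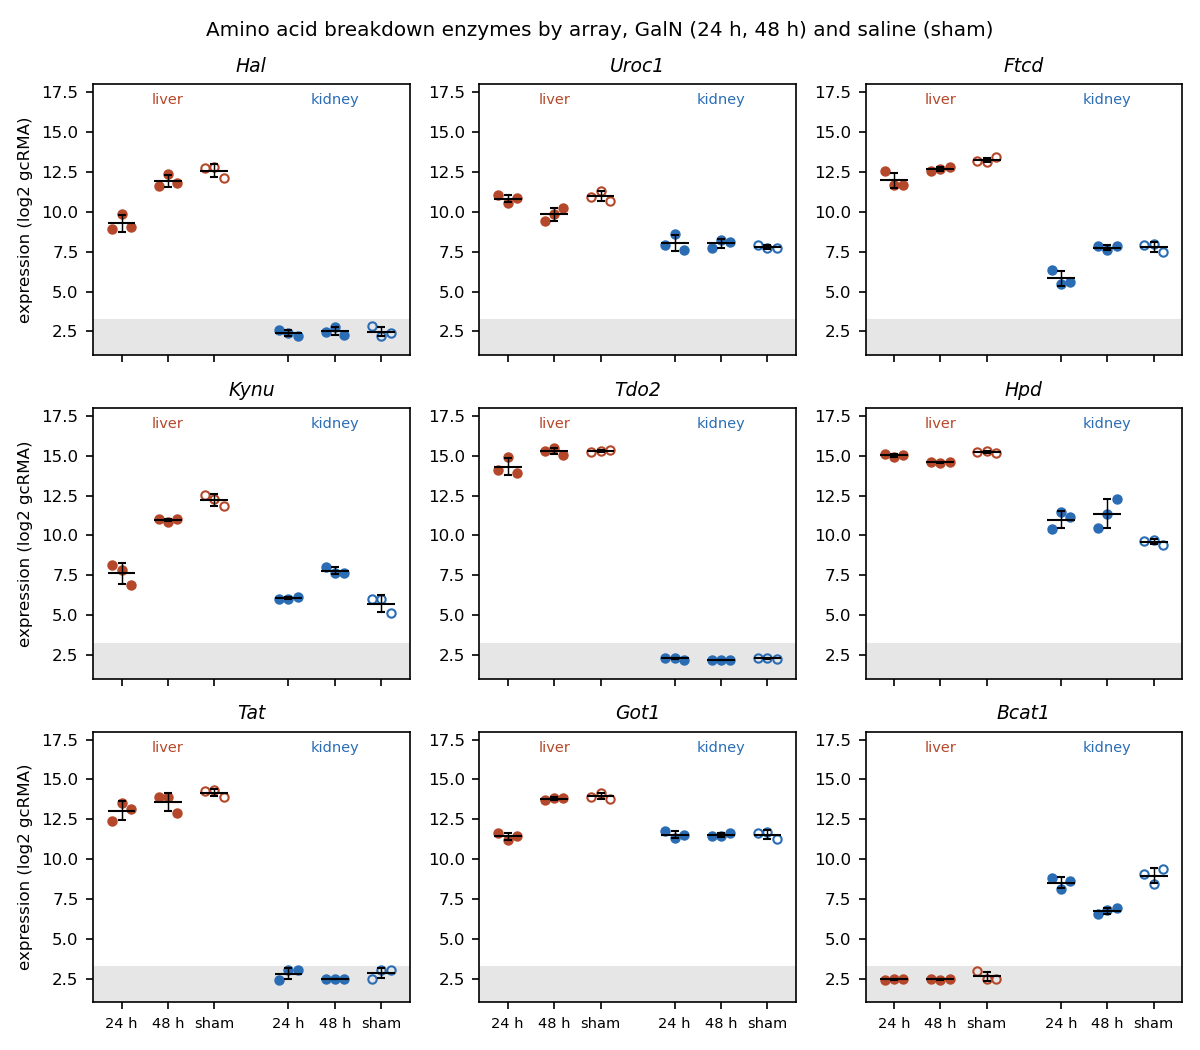
Expression of the 9 enzymes on each array (log2 gcRMA, vertical axis) in liver (red) and kidney (blue) at 24 h, 48 h and sham, with sham arrays as open circles, black bars for the group mean and its SD (n = 3), and a grey band for the floor. Within liver, Hal, Kynu and Got1 are lowest at 24 h and Uroc1 and Hpd are lowest at 48 h, and Hal, Tdo2 and Tat lie in the floor band in all kidneys.

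In histidine breakdown, the first and last of the 3 enzymes fell in liver at 24 h and the middle one was called lower at 48 h only, a contrast between enzymes that was not itself tested. The promoters of the 3 histidine enzymes are shown because Hal and Ftcd, at either end of the chain, fell in liver at 24 h while Uroc1 between them was not called there. They are RefSeq sequences of build GRCm38.p6, each from 250 bases before the transcription start to 50 bases after it, at chr10:93488518-93488817 (plus strand) for Hal, chr6:90333039-90333338 (plus strand) for Uroc1 and chr10:76575398-76575697 (plus strand) for Ftcd. Capitals mark the word TATAAA of the core promoter box, written TTTATA where it was found on the other strand, and the word GTTAAT from the site of hepatocyte nuclear factor HNF1. Both were searched on both strands.
Hal: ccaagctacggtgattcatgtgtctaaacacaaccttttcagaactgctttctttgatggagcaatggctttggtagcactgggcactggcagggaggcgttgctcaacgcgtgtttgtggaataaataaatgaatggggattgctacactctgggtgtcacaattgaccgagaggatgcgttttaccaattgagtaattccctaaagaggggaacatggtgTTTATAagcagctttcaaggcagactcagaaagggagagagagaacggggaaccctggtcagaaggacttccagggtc
Uroc1: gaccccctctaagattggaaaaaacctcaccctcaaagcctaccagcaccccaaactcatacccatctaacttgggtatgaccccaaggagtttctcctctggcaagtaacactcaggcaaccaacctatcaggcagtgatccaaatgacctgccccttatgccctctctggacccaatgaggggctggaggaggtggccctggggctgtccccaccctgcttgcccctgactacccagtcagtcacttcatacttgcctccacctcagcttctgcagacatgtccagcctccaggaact
Ftcd: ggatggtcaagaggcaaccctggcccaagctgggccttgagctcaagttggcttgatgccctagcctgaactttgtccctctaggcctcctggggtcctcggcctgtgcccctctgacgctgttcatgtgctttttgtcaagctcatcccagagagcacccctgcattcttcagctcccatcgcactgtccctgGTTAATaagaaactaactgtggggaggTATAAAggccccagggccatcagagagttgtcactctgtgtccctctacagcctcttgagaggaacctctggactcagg
The TATAAA word lies on the other strand at -28 from the start in Hal and on the same strand at -29 in Ftcd, and GTTAAT lies at -56 in Ftcd. RefSeq promoters were matched for 8 of the 9 enzymes, all but Kynu, and 4 of these 8 hold TATAAA, against 13.6% of 32851 mouse promoters of the same length. Bcat1 has 2 promoters, and the second holds 0 of the words searched. The counts are by enzyme, with a word in any of its promoters, while the shares are by promoter. In Tdo2 and Bcat1 the word lies at -229 and -219, far from the place of a core promoter box just before the start. GTTAAT is in 1 of the 8 and in 7.1% of all promoters. The words CAAAGTC (HNF4), TTGCGCA (C/EBP), AGAACA (glucocorticoid receptor) and TGACGTC (CREB) are in the promoters of 0 of the 8 enzymes and in 4.44%, 2.02%, 19.0% and 3.21% of all promoters. A match describes the letters of this window and nothing more.

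Hal (probe set 1418645_at), which removes ammonia from histidine, measured 8.93, 9.88 and 9.03 in liver at 24 h, 11.64, 12.37 and 11.83 at 48 h, and 12.77, 12.85 and 12.13 in sham liver. All 24 h arrays lay below all others, while the 48 h and sham arrays overlapped. Hal fell by 3.31 on the log2 scale at 24 h (SE 0.33, adjusted p = 6.19e-04), a 9.88-fold lower level. At 48 h it was 2.67 higher than at 24 h (adjusted p = 0.00172, 6.36-fold) and differed from sham by -0.64, which was not called (adjusted p = 0.287). With array weights that difference was -1.01 and was called (adjusted p = 0.0154). In kidney Hal read 2.22 to 2.81 on all 9 arrays and was at the floor in every group.

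Uroc1 (probe set 1451565_s_at), which hydrates urocanate, was called lower in liver at 48 h and not at 24 h. It measured 11.06, 10.58 and 10.87 at 24 h, 9.42, 9.84 and 10.26 at 48 h, and 10.95, 11.32 and 10.72 in sham liver. The 24 h and sham arrays overlapped (difference -0.16, adjusted p = 0.688), and the 48 h arrays lay below all others. At 48 h Uroc1 was 1.15 lower than sham (log2, SE 0.25, adjusted p = 0.0331, 2.22-fold), and the difference between 48 h and 24 h was -0.99 (adjusted p = 0.0254, 1.99-fold). The call at 48 h against sham was lost without 24 h array C (adjusted p = 0.0565), 48 h array A (0.0817) or B (0.0786), or sham array A (0.076), B (0.109) or C (0.0584). It was also lost without the filter on low values (0.0618), with a block for the array letter (0.0917) and with the 6 arrays compared fitted alone (0.08). The call against 24 h was lost without 24 h array A (adjusted p = 0.0787) or C (0.0723) or 48 h array A (0.0656) or B (0.0615). It was also lost with the letter block (0.0673) and with 6 arrays (0.054). The suffix of this probe set marks probes that can match transcripts of more than a single gene. The other Uroc1 set read 8.14, 7.94 and 8.07 at 24 h, 7.58, 7.51 and 7.51 at 48 h, and 7.52, 7.54 and 7.52 in sham liver. Its 24 h arrays lay above all other liver arrays. Most of its 48 h and sham readings recur exactly across arrays, and it did not show the fall at 48 h: with the mean of both sets the change was -0.57 (adjusted p = 0.0556). In kidney Uroc1 ranged from 7.60 to 8.59, its groups overlapped, and it was not called.

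Ftcd (probe set 1419670_at), which hands the last carbon of histidine breakdown to folate, was called lower at 24 h in both organs. In liver it measured 12.55, 11.66 and 11.72 at 24 h, 12.55, 12.72 and 12.82 at 48 h, and 13.20, 13.14 and 13.43 in sham liver. Both GalN groups lay below all sham arrays, and 24 h array A lay apart from B and C at the level of the 48 h group. Ftcd fell by 1.28 at 24 h (log2, SE 0.24, adjusted p = 0.0063, 2.43-fold) and differed from sham by -0.56 at 48 h, which was not called (adjusted p = 0.195). Without 24 h array A the 48 h difference passed the threshold (adjusted p = 0.0325), as did the difference between 48 h and 24 h (1.01, adjusted p = 0.00393, against 0.72 and 0.0625 with it). Array weights also brought the 48 h difference past the threshold (adjusted p = 0.0211), and the difference between 48 h and 24 h passed with them (0.0297), with a filter at the 60th percentile (0.0491) and with all 18 arrays in 1 fit (0.0365).

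In kidney Ftcd measured 6.37, 5.46 and 5.63 at 24 h, 7.83, 7.58 and 7.83 at 48 h, and 7.94, 7.98 and 7.46 in sham kidney. All 24 h arrays lay below the others, and the 48 h and sham arrays overlapped. Ftcd fell by 1.97 at 24 h (log2, SE 0.26, adjusted p = 0.0189, 3.92-fold) and was 1.93 higher at 48 h than at 24 h (adjusted p = 0.028, 3.8-fold). It was the 1 enzyme of the 9 called in kidney at 24 h, where 8 were tested and 5.31% of all 12003 genes tested were called, 2.21% higher and 3.1% lower. Ftcd and Hpd were the 2 enzymes whose arrays did not overlap between 24 h and sham, against 27.0% of all genes. The call of Ftcd was lost without 24 h array B (adjusted p = 0.0501) or sham array A (0.0554) or B (0.0676), and with 6 arrays (0.0625). The call of 48 h against 24 h was lost without 24 h array B (adjusted p = 0.0557) or C (0.0672), 48 h array A (0.1), B (0.0737) or C (0.0856), or sham array A (0.0501) or B (0.0581). It was also lost without the filter (0.0511), with a block for the array letter (0.0694) and with 6 arrays (0.0816). The actin gap between 3' and 5' control sets was 1.48, 1.50 and 1.64 in kidney at 24 h, 1.75, 1.63 and 1.68 at 48 h, and 1.82, 1.72 and 2.02 in sham kidney, and its part in this result was not tested. The changes of Ftcd at 24 h in kidney and liver differed by -0.69 (kidney minus liver, SE 0.36), which was not called (adjusted p = 0.167) but passed without kidney 24 h array A (-0.97, adjusted p = 0.0385), with quantile normalization (adjusted p = 0.041) and with array weights (-0.92, adjusted p = 0.0154).

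Tdo2 (probe set 1419093_at), the first enzyme of the kynurenine pathway, measured 14.12, 14.94 and 13.94 in liver at 24 h, 15.30, 15.50 and 15.08 at 48 h, and 15.25, 15.32 and 15.34 in sham liver. The 24 h arrays lay below all others, with array B the highest of them, and the 48 h and sham arrays overlapped. Tdo2 fell by 0.97 at 24 h (log2, SE 0.25, adjusted p = 0.0233, 1.96-fold) and stood 0.96 higher at 48 h than at 24 h (adjusted p = 0.0274, 1.95-fold). The call at 24 h was lost without 24 h array A (adjusted p = 0.0726) or C (0.0679), or sham array A (0.0571), B (0.0683) or C (0.0655), and with 6 arrays (0.0502). The call of 48 h against 24 h was lost without 24 h array A (adjusted p = 0.0839) or C (0.0773), or 48 h array A (0.0706) or B (0.0778), without the filter (0.053) and with 6 arrays (0.0844).

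The other Tdo2 sets went the same way. One read 11.80, 13.38 and 11.79 at 24 h, 13.80, 13.90 and 13.30 at 48 h, and 14.03, 13.76 and 13.59 in sham liver. The other read 11.43, 13.14 and 11.50 at 24 h, 13.72, 13.97 and 13.71 at 48 h, and 14.10, 13.86 and 13.62 in sham liver. In both, as in the set used, array B was the highest of the 24 h arrays. In kidney Tdo2 read 2.21 to 2.31, at the floor in every group, and did not pass the filter for testing. Of the other enzymes that open this pathway, Ido1 read 2.21 on all 18 arrays and Ido2 read 2.33 on the 3 liver arrays at 24 h, 4.31, 5.77 and 3.90 at 48 h, and 5.31, 5.10 and 3.93 in sham liver. Ido2 was called lower at 24 h (adjusted p = 0.0118, at least 2.96-fold).

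Kynu (probe set 1430570_at), which cleaves kynurenine and 3-hydroxykynurenine, had the largest change of the 9 enzymes in liver. It measured 8.13, 7.85 and 6.87 at 24 h, 11.01, 10.87 and 11.02 at 48 h, and 12.57, 12.31 and 11.82 in sham liver. The 3 groups did not overlap, with 48 h between the others. Kynu fell by 4.62 at 24 h (log2, SE 0.34, adjusted p = 2.07e-04, 24.6-fold) and was 3.35 higher at 48 h than at 24 h (adjusted p = 8.37e-04, 10.2-fold). At 48 h it differed from sham by -1.27, 2.41-fold, which was not called (adjusted p = 0.0589). It was called under 8 of the alternatives: without 24 h array C (adjusted p = 0.0205), with the mean of both Kynu sets (-2.12, adjusted p = 0.00339), with a filter at the 60th percentile (0.0451), quantile normalization (0.0455) or median centring (-1.41, adjusted p = 0.0357), with array weights (0.00314), and with 6 (0.0389) or 18 arrays (0.00871). The other Kynu set read 2.26, 2.21 and 2.21 at 24 h, 2.45, 2.90 and 3.46 at 48 h, and 5.46, 5.83 and 6.44 in sham liver, so it was at the floor at 24 h and stayed below sham at 48 h.

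In kidney Kynu was called higher at 48 h. It measured 6.04, 6.03 and 6.16 at 24 h, 8.02, 7.66 and 7.66 at 48 h, and 6.03, 6.03 and 5.12 in sham kidney. The 48 h arrays lay above all others, and 24 h array B and sham arrays A and B share 1 recurring reading. Kynu rose by 2.06 at 48 h against sham (log2, SE 0.25, adjusted p = 0.0188, at least 4.17-fold) and by 1.71 against 24 h (adjusted p = 0.034, at least 3.27-fold). At 24 h its difference from sham was 0.35 (adjusted p = 0.455). The call at 48 h against sham was lost without 48 h array B (adjusted p = 0.0696) or C (0.0569) or sham array A (0.0588), and with a block for the array letter (0.0575). The call against 24 h was lost without 24 h array A (adjusted p = 0.063), B (0.069) or C (0.0714), 48 h array A (0.103), B (0.0908) or C (0.0864), or sham array A (0.0501) or B (0.0589). It was also lost without the filter (0.0621) and with a block for the array letter (0.0737). The rise rests on 1 probe set: the other Kynu set read 2.21 on all 9 kidney arrays, and the mean of both sets rose by 1.03 (adjusted p = 0.0139). The hepatocyte genes F2 and Ahsg were at the floor in these kidneys too, and the summed hepatocyte markers were 15.30 to 15.43 at 48 h and 15.25 to 15.58 in sham kidney. In kidney that sum is made mostly of Ttr, which read 15.26 to 15.39 at 48 h and 15.20 to 15.55 in sham kidney. Alb read 7.45 to 8.04 at 48 h and 8.08 to 8.44 in sham kidney. The part of these markers in the rise of Kynu was not tested. The changes of Kynu in kidney and liver differed by 4.97 at 24 h (kidney minus liver, SE 0.43, adjusted p = 2.63e-06) and by 3.33 at 48 h (SE 0.43, adjusted p = 4.21e-04). Both values rest on kidney sham readings of which 2 of 3 are recurring background, below which a kidney fall could not be read, so their size is not exact.

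Tat (probe set 1451557_at), which transfers the amino group of tyrosine, measured 12.42, 13.55 and 13.16 in liver at 24 h, 13.87, 13.89 and 12.91 at 48 h, and 14.26, 14.31 and 13.92 in sham liver. Both GalN groups lay below all sham arrays, and the lowest 48 h value was array C, the one with the widest actin gap. The difference from sham was -1.12 at 24 h, 2.18-fold (SE 0.36), with an adjusted p of 0.0501, just above the threshold, and -0.61 at 48 h (adjusted p = 0.355). Tat was called at 24 h without 24 h array B (-1.38, adjusted p = 0.0397) and without 48 h array C (adjusted p = 0.0246). It was also called with a filter at the 60th percentile (0.0372), the mean of sets (0.0486), median centring (-1.29, adjusted p = 0.0108), robust variances (0.0434), array weights (0.00669), 6 arrays (0.0486) and 18 arrays (0.0082). In kidney it read 2.40 to 3.02, at the floor in every group.

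Hpd (probe set 1424618_at), the next enzyme, showed small differences in liver with a small spread. It measured 15.13, 14.92 and 15.05 at 24 h, 14.63, 14.55 and 14.60 at 48 h, and 15.27, 15.33 and 15.20 in sham liver. The 3 groups did not overlap, and 48 h was the lowest. Hpd fell by 0.23 at 24 h (log2, SE 0.07, adjusted p = 0.0424, 1.18-fold) and by 0.68 at 48 h (adjusted p = 0.00479, 1.6-fold), and 48 h was 0.44 below 24 h (adjusted p = 0.00437, 1.36-fold). The 24 h call was lost without 24 h array B (adjusted p = 0.116) or C (0.0871), 48 h array A (0.0601) or B (0.0549), or sham array A (0.103), B (0.136) or C (0.0588). With quantile normalization the 24 h difference was -0.12 and was not called (adjusted p = 0.416). The call was also lost without the filter (0.0715), with robust variances (0.0526), with a block for the array letter (0.0839) and with 6 arrays (0.061). With all 18 arrays in a single fit it had an adjusted p of 0.647, the 48 h difference from sham had 0.188 and the difference between 48 h and 24 h had 0.346.

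In kidney Hpd was higher on every GalN array than on every sham array, yet it was not called. It measured 10.40, 11.47 and 11.14 at 24 h, 10.44, 11.36 and 12.27 at 48 h, and 9.67, 9.71 and 9.41 in sham kidney. The GalN arrays spread over 1.06 log2 units at 24 h and 1.83 at 48 h, while the sham arrays spread over 0.30. The difference from sham was 1.40 at 24 h (SE 0.47, adjusted p = 0.127, 2.64-fold) and 1.76 at 48 h (SE 0.47, adjusted p = 0.0962, 3.38-fold). With all 18 arrays in a single fit both passed the threshold (adjusted p = 0.0409 at 24 h and 0.0174 at 48 h), as did the 48 h difference with array weights (1.66, adjusted p = 0.0324). The changes of Hpd in kidney and liver differed by 1.64 at 24 h (kidney minus liver, SE 0.48, adjusted p = 0.0186) and by 2.43 at 48 h (adjusted p = 0.00526). The 24 h difference was lost without kidney 24 h array B (adjusted p = 0.0505).

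**Figure D2:**
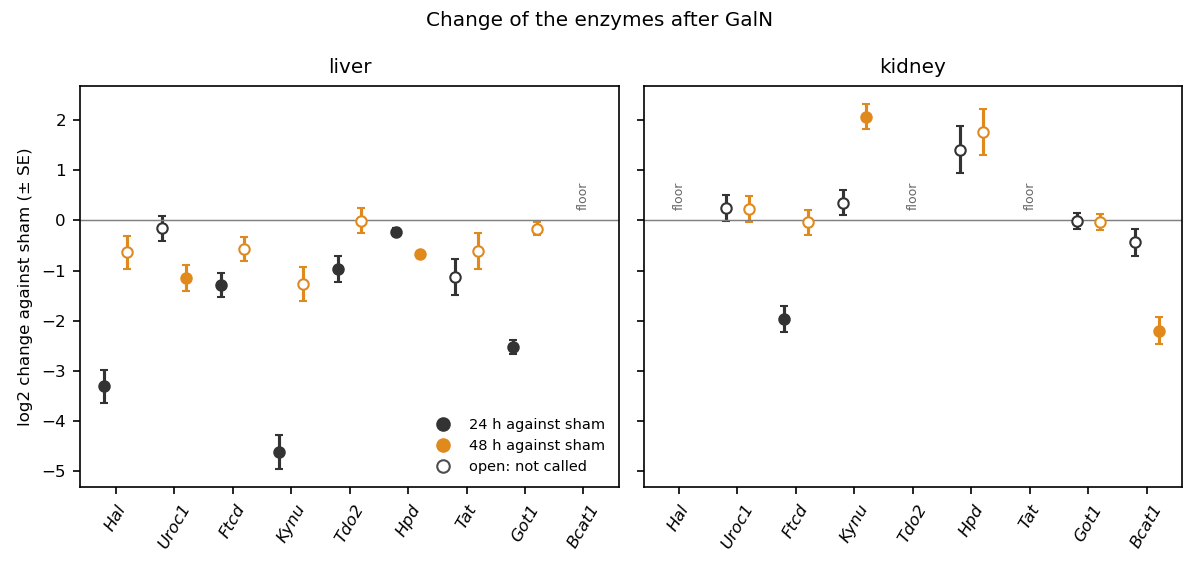
Log2 change against sham with its SE for the 9 enzymes (horizontal axis) in liver and kidney at 24 h (black) and 48 h (orange), filled where called and open where not. In liver Kynu (-4.62), Hal (-3.31) and Got1 (-2.52) are lowest at 24 h, and in kidney Ftcd is lower at 24 h (-1.97), Kynu is higher at 48 h (2.06) and Bcat1 is lower at 48 h (-2.20), while "floor" marks enzymes at background in that organ.

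Got1 (probe set 1450970_at), the cytosolic aspartate aminotransferase, fell in liver at 24 h and was not called in kidney. In liver it measured 11.64, 11.21 and 11.42 at 24 h, 13.68, 13.84 and 13.82 at 48 h, and 13.90, 14.14 and 13.79 in sham liver. The 24 h arrays lay more than 2 log2 units below every other liver array, and the 48 h and sham arrays overlapped. Got1 fell by 2.52 at 24 h (SE 0.14, adjusted p = 9.34e-05, 5.75-fold) and was 2.36 higher at 48 h than at 24 h (adjusted p = 1.83e-04, 5.13-fold), with a difference from sham of -0.16 at 48 h (adjusted p = 0.508). With array weights that difference was -0.38 and was called (adjusted p = 0.0248). In kidney it measured 11.75, 11.30 and 11.53 at 24 h, 11.43, 11.44 and 11.63 at 48 h, and 11.65, 11.72 and 11.24 in sham kidney, and the groups overlapped. The changes at 24 h differed by 2.51 between kidney and liver (SE 0.22, adjusted p = 2.52e-06). Got2, the mitochondrial form of the same enzyme, averaged 12.99 ± 0.23 in liver at 24 h, 12.90 ± 0.29 at 48 h and 13.14 ± 0.04 in sham liver (SD, n = 3 each), and was not called (adjusted p = 0.53 at 24 h, limma).

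The promoter of Got1 is shown because this enzyme had the smallest p among the 9 in liver at 24 h, at chr19:43524556-43524855 (minus strand, GRCm38.p6, RefSeq). Capitals mark TGATGCA, a word from composite sites bound by ATF4 with C/EBP partners, read from the other strand as TGCATCA.
Got1: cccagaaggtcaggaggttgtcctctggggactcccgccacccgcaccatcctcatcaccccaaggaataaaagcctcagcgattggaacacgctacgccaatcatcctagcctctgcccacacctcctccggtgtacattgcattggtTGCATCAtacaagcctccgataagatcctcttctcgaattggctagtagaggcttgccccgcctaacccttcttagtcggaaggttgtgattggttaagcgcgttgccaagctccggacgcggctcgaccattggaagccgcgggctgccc
The word lies at -101 from the start. It is in the promoters of 1 of the 8 enzymes and in 3.15% of all 32851 promoters, and binding was not measured.

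Bcat1 (probe set 1450871_a_at), the cytosolic branched-chain aminotransferase, was the 1 enzyme of the 9 found in kidney and not in liver. It read 2.42 to 2.98 on all 9 liver arrays, at the floor. In kidney it measured 8.83, 8.13 and 8.61 at 24 h, 6.56, 6.81 and 6.93 at 48 h, and 9.05, 8.45 and 9.38 in sham kidney. The 48 h arrays lay below all others, and the 24 h and sham arrays overlapped. Bcat1 fell by 2.20 at 48 h against sham (log2, SE 0.27, adjusted p = 0.0193, 4.59-fold) and was 1.76 lower at 48 h than at 24 h (adjusted p = 0.0356, 3.39-fold), while the 24 h difference from sham was -0.44 (adjusted p = 0.38). The call against sham was lost without 48 h array B (adjusted p = 0.0762) or C (0.0569) or sham array A (0.0725). The call against 24 h was lost without 24 h array A (adjusted p = 0.067) or C (0.0835), 48 h array A (0.114), B (0.0981) or C (0.0915), or sham array A (0.065). It was also lost without the filter (0.0678), with a block for the array letter (0.071) and with 6 arrays (0.0714). A dimmer Bcat1 set read 4.67, 3.08 and 3.33 in kidney at 24 h, 2.44, 2.44 and 2.75 at 48 h, and 3.51, 3.91 and 3.64 in sham kidney, and the third set was at the floor. With the mean of the sets the 48 h difference was -1.18 from sham (adjusted p = 0.0516) and -1.02 from 24 h (adjusted p = 0.0855), and neither was called. Bcat2, the mitochondrial form, measured 7.14, 7.18 and 7.21 in kidney at 24 h, 6.57, 7.83 and 7.64 at 48 h, and 7.16, 6.71 and 6.59 in sham kidney, and was not called.

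In kidney at 48 h, Kynu rose and Bcat1 fell among 8 enzymes tested, where 2.69% of all genes were called, 1.29% higher and 1.4% lower. The arrays did not overlap for 3 of the 8 (Kynu, Hpd and Bcat1), against 27.1% of all genes tested. The count of 2 became 0 without 48 h array B or C or without sham array A. Between 48 h and 24 h, Ftcd and Kynu were higher and Bcat1 was lower at 48 h, where 1.61% of all genes were called, 0.958% higher and 0.65% lower. The arrays did not overlap for these 3, against 21.6% of all genes. That count of 3 became 1 without 24 h array A or B or sham array B, and 0 without 24 h array C, sham array A or any of the 48 h arrays. The median change over the 9 enzymes was -0.01 at 24 h and -0.04 at 48 h against sham, and 0 over all genes tested in both. The 9 include Hal, Tdo2 and Tat, which were at the floor in kidney and could not fall. Single enzymes ran from -1.97 (Ftcd) to 1.40 (Hpd) at 24 h and from -2.20 (Bcat1) to 2.06 (Kynu) at 48 h. Of the tubule markers 0 of 8 were called at 24 h and 1 of 8 was lower at 48 h (Slc22a6, by 0.55 on the log2 scale), with a summed level of 17.53 to 17.58 at 24 h, 17.64 to 17.70 at 48 h and 17.60 to 17.71 in sham kidney. That sum is made mostly of Kap and Umod, which read 15.68 to 16.36 in all 3 groups. Some other tubule markers stood apart without being called. Aqp2, the water channel of the collecting duct, read 12.10, 10.22 and 10.08 at 24 h, 9.01, 10.19 and 9.02 at 48 h, and 8.61, 8.53 and 8.12 in sham kidney, so that all GalN arrays lay above all sham arrays. Slc12a3, the sodium chloride transporter of the distal tubule, read 11.73, 12.54 and 12.38 at 24 h, 11.61, 12.19 and 12.72 at 48 h, and 11.41, 11.59 and 10.53 in sham kidney, again with no overlap with sham. Among hepatocyte markers Serpinc1 was lower in kidney at 48 h, by 1.77 on the log2 scale, and at 24 h the macrophage marker Cd14 was higher by 0.62 and the epithelial keratin Krt7 by 1.01. The part of these markers in the values of the enzymes was not tested.

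In sham mice the organs differed in all 9 enzymes, of which 8 were lower in kidney than in liver and Bcat1 was higher, where 47.8% of all 12412 genes tested were called, 28.8% higher and 19.0% lower in kidney. The arrays of the organs did not overlap for any of the 9, against 59.7% of all genes. The smallest difference was that of Got1 (-2.41 on the log2 scale, kidney minus liver, 5.31-fold), followed by Uroc1 (at least 9.17-fold), Ftcd (-5.47, 44.2-fold), Hpd (-5.67, 50.9-fold) and Kynu (at least 91.1-fold). Hal, Tat and Tdo2 were at the floor in sham kidney and were lower there by at least 660-fold, 1980-fold and 4350-fold. Bcat1, at the floor in sham liver, was at least 53.8-fold higher in sham kidney. All 9 calls held in each of the 27 alternative settings tried.

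Within liver, the order of the group means from low to high was 24 h, 48 h and sham for Hal, Ftcd, Kynu, Tdo2, Tat and Got1, and 48 h, 24 h and sham for Uroc1 and Hpd. The arrays of the neighbours 48 h and sham overlapped for Hal, Tdo2 and Got1. The neighbours 24 h and sham overlapped for Uroc1, and 24 h and 48 h overlapped for Ftcd and Tat. In kidney the lowest group was 24 h for Ftcd, 48 h for Bcat1 and sham for Kynu and Hpd. Across organs, the 24 h liver level of Got1 (11.42 ± 0.22) lay within the range of its kidney arrays (11.24 to 11.75), and the 24 h liver arrays of Kynu (7.62 ± 0.66) overlapped its kidney arrays at 48 h (7.78 ± 0.21), with means ± SD over 3 arrays each.

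The test of the difference between organs was read for the enzymes above the floor in both organs: Uroc1, Ftcd, Kynu, Hpd and Got1. It was called for 3 of these at 24 h (Kynu, Hpd and Got1) and for 3 at 48 h (Uroc1, Kynu and Hpd). Of all 11662 genes tested, 31.3% were called at 24 h and 13.4% at 48 h, with no such floor rule applied. In all 6 the change was higher in kidney than in liver. Genes both called and higher in kidney were 14.2% of all genes at 24 h and 4.58% at 48 h. Among the genes called, 45.3% were higher in kidney at 24 h and 34.1% at 48 h. With median centring 55.4% of the genes called at 48 h were higher in kidney, and 44.9% with quantile normalization, against 34.1% as deposited. At 24 h it was 55.3% with median centring, against 45.3%. Enzymes at the floor in 1 organ (Hal, Tdo2, Tat and Bcat1) were left out of the counts of enzymes, because a gene at the floor cannot fall. Of these, Hal at 24 h (adjusted p = 5.16e-05) and Bcat1 at 48 h (0.00137) were below the threshold in the same limma test. The counts of enzymes and the shares of all genes therefore follow different rules. Kynu is counted although 2 of its 3 sham readings in kidney are recurring background; without it 2 enzymes were called at each time. Of the kidney readings of Uroc1, 1 of 3 at 48 h and 1 of 3 in sham recur. For Uroc1 at 48 h the difference was 1.38 (kidney minus liver, SE 0.37, adjusted p = 0.0242). It was lost without liver 48 h array A (adjusted p = 0.0573), kidney 48 h array B (0.0602) or C (0.0588), liver sham array B (0.0634) or kidney sham array B (0.056).

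**Figure D3:**
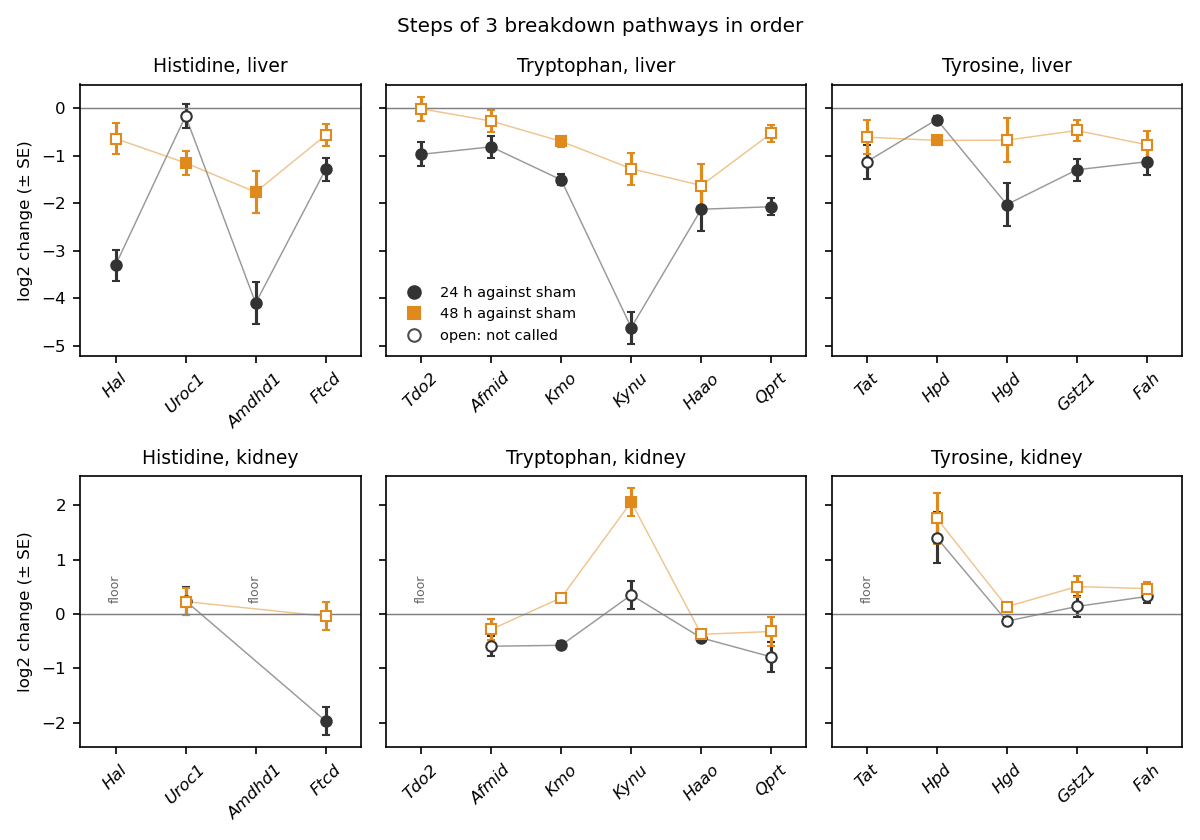
Log2 change against sham with its SE for the enzymes of histidine, tryptophan and tyrosine breakdown in the order of the reactions, in liver (top) and kidney (bottom), at 24 h (black circles) and 48 h (orange squares), filled where called. In liver at 24 h the histidine steps Hal (-3.31), Amdhd1 (-4.10) and Ftcd (-1.28) were called lower and Uroc1 (-0.16) was not. The difference between steps was not tested. Kynu is the lowest tryptophan step.

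The steps between and after these enzymes were read from a wider list of 83 amino acid catabolic enzymes, of which 73 were measured, with these 9 among them. This list too was drawn up with earlier results of these data known, so its shares are descriptions and not an independent test. The unmeasured genes of the list were not analysed here. In liver at 24 h 44 of the 72 tested were lower and 0 were higher, where 15.0% of all genes tested were lower and 17.9% higher, and 38 of 63 were lower when the 9 were set aside. The median change over the 72 was -0.94, against 0.005 over all genes tested. All genes tested include genes at the floor, such as Bcat1 in liver, and a gene at the floor cannot fall. The part of such genes in these shares was not tested. Of the tryptophan enzymes 10 of 10 tested were lower, of the histidine enzymes 3 of 4, of the phenylalanine and tyrosine enzymes 5 of 7, of the serine, glycine and threonine enzymes 4 of 5, of the proline and hydroxyproline enzymes 3 of 4, and of the methionine and cysteine enzymes 5 of 8. The shares were lower for the transamination and glutamate enzymes, with 3 of 6, the branched-chain enzymes, with 10 of 23, and the lysine enzymes, with 1 of 5 (Dhtkd1). Leaving out 1 array gave 30 to 49 lower enzymes.

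Amdhd1, the histidine step between Uroc1 and Ftcd, measured 9.15, 7.59 and 8.45 in liver at 24 h, 10.03, 11.15 and 11.04 at 48 h, and 12.61, 12.53 and 12.36 in sham liver, and the groups did not overlap. It fell by 4.10 at 24 h (log2, adjusted p = 7.68e-04). Its fall of 1.76 at 48 h (adjusted p = 0.0481) was lost without 24 h array C or any single 48 h or sham array. In kidney Amdhd1 was at the floor. In the kynurenine pathway Kmo, which hydroxylates kynurenine, fell by 1.51 at 24 h (adjusted p = 2.32e-04), Qprt, which makes nicotinate mononucleotide, fell by 2.07 (adjusted p = 3.39e-04) and Kyat1, a kynurenine transaminase, fell by 1.62 (adjusted p = 0.00265). After Hpd in tyrosine breakdown, the homogentisate enzyme Hgd fell by 2.03 (adjusted p = 0.0138) and the isomerase Gstz1 by 1.29 (adjusted p = 0.00543), as did Qdpr, which recycles the biopterin cofactor, by 1.45 (adjusted p = 0.00172). Among aminotransferases, Oat, which acts on ornithine, fell by 1.76 (adjusted p = 0.00144). The cysteine and methionine enzymes Cth, Cbs and Cdo1 fell by 2.97, 2.73 and 1.94, and the glyoxylate aminotransferase Agxt fell by 2.52. Shmt1 and Gcsh, of serine and glycine breakdown, fell by 2.16 and 0.79, the branched-chain enzymes Acat1, Mccc2 and Ivd by 1.69, 1.61 and 0.75, the proline oxidase Prodh by 1.72 and Dhtkd1, of lysine breakdown, by 1.43. These calls at 24 h held without each liver array in turn. The alanine aminotransferase Gpt fell by 0.85 (adjusted p = 0.031), a call lost without 24 h array B or C or sham array A or B. The hydroxyproline enzyme Hoga1 fell by 1.56 (adjusted p = 0.0295, lost without 5 of 9) and Aldh4a1, the next step after Prodh, by 0.91 (adjusted p = 0.0441, lost without 7 of 9).

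At 48 h in liver 15 of the 72 were lower and 1 was higher, where 3.94% of all genes tested were lower and 6.24% higher, with a median of -0.52 against 0.03 over all genes. The count of lower enzymes was 7 without 48 h array A, 9 without 48 h array B, 7 without sham array A, 5 without sham array B and 8 without sham array C, and 19 without 48 h array C, which stood apart. The branched-chain enzymes Ivd and Pccb, in the breakdown of leucine and of propionyl groups, fell by 1.26 (adjusted p = 0.00509) and 0.63 (adjusted p = 0.00886), and both calls held without each array. Kmo and Aldh7a1, of lysine breakdown, fell by 0.69 and 0.91 (adjusted p = 0.0141 and 0.0131), and both calls were lost without sham array B. Dhtkd1 (-0.93), Oat (-0.93), Aldh4a1 (-1.38) and Ahcy, which splits S-adenosylhomocysteine (-0.44), were also called lower, and these calls were lost without 6 or 7 of the 9 arrays in turn. The 1 that rose was Csad, the decarboxylase of taurine synthesis, by 3.16 (adjusted p = 0.0175), a call lost without sham array B or C. In kidney Csad fell, by 0.57 at 24 h (adjusted p = 0.0169, lost without sham array B) and by 0.75 at 48 h (adjusted p = 0.00851).

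In kidney 6 of the 70 tested were lower and 0 were higher at 24 h, where 3.1% of all genes tested were lower and 2.21% higher, and 3 were lower and 3 higher at 48 h, where 1.4% of all genes were lower and 1.29% higher. The 6 lower at 24 h were Ftcd, Csad, Kmo (-0.58), Haao, which follows Kynu (-0.44), Qdpr (-0.53) and the aminotransferase Agxt2 (-0.51), and the calls of the last 4 were lost without 3 to 7 of the 9 arrays in turn. The 3 higher at 48 h were Kynu, Prodh2, which oxidises hydroxyproline (1.03, adjusted p = 0.0234), and Dhtkd1 (0.84, adjusted p = 0.0225). The Prodh2 call was lost without 48 h array B or C or any single sham array, and the Dhtkd1 call without 48 h array B or C or sham array A or B. The 3 lower at 48 h were Bcat1, Csad and Acat1, a thiolase (-0.40, adjusted p = 0.0364), and the Acat1 call was lost without 7 of the 9 kidney arrays in turn.

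**Figure D4:**
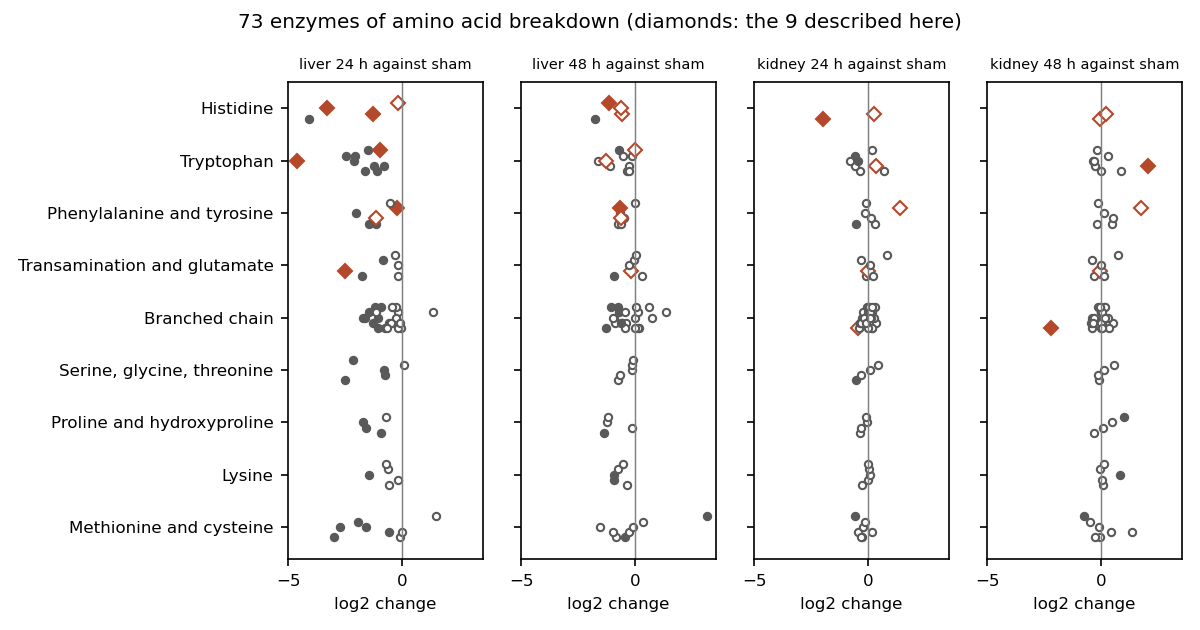
Log2 change against sham (horizontal axis) of the 73 measured enzymes by pathway (rows), in liver and kidney at 24 h and 48 h, with diamonds for the 9 enzymes and circles for the others, filled where called; enzymes at background in both groups or not tested are left out. In liver at 24 h 44 of 72 lie to the left as filled symbols, and in kidney at 24 h 6 of 70 do.

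For each enzyme called in an organ, the genes with the most similar pattern were those with the smallest root mean square difference over the 9 arrays of that organ, after each gene was set relative to its sham mean. In liver the closest to Hal was Acy3 (0.27, where Hal's own departure from its sham mean was 1.98), the closest to Kynu was Sucnr1 (0.50, against 2.79 for Kynu itself) and the closest to Got1 was Pgghg (0.18, against 1.47). Ftcd was closest to Ndrg2 (0.17, against 0.85), with Fah, the last enzyme of tyrosine breakdown, next (0.19). Uroc1 was closest to Hsd11b1 (0.20, against 0.72), Tdo2 to Impa1 (0.18, against 0.62) and Hpd to Pccb (0.09, against 0.42). In kidney the closest to Ftcd was Zc3h12c (0.42, against 1.17), to Kynu Ackr4 (0.37, against 1.24) and to Bcat1 Ccl28 (0.45, against 1.33). These are descriptions over 9 arrays that share 1 platform and 1 normalisation.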

How the data were processed

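Total RNA of liver and kidney was measured on single-colour Affymetrix arrays of the mouse genome, as the labels' protocols state. The deposited table holds log2 values computed by the authors with GCRMA, per the submitters' processing notes, whose version is not given. The labels leave unclear whether RNA was pooled. Each of the 18 arrays was treated as 1 animal, so p-values measure only the spread between these samples, which may be technical. The number of arrays limits the precision.

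Of 45101 probe sets, 64 controls were left out, 34945 are named for 1 gene, 932 for several and 9160 for none. The set with the highest mean stood for each of 18193 genes. A gene was tested in an organ when at least 3 of its 9 arrays exceeded their own median (percentile 50). These medians lie within the floor, so the shares of all genes tested include genes at the floor. The test was limma (version 3.58.1, R 4.3.3) with an intensity trend on the 9 arrays of an organ, two-sided, with Benjamini-Hochberg adjustment over all genes tested. Comparisons between organs used all 18 arrays. The procedure was also run on simulated arrays, and the outcome is not given here. Alternatives were other filters, the mean of a gene's sets, quantile normalization and median centring, fits with array weights, without the trend or with robust variances, a block for the array letter, fits of 6 or 18 arrays, and the omission of single arrays. For the difference between organs a random block for the animal was a further alternative.

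The members, gene lists, markers and promoter words were chosen with earlier results of these data known. From the wider list, each pathway and organ gave up to 3 called genes of smallest p at 24 h and up to 2 at 48 h; Ido1, Ido2, Got2, Bcat2 and Amdhd1 were added as isoenzymes or neighbouring steps. For each called member the most similar genes are given. Single markers were named after their values were seen, as called ones or as ones that stood apart or made up most of a sum. Within an organ the letters were not treated as pairs: correlations of deviations from group means between same-lettered arrays of different groups ran from -0.12 to 0.23. Whether a letter marks the same mouse in liver and kidney is not stated. Between same-lettered liver and kidney arrays of a group these correlations ran from -0.06 to 0.25, with 0.20 for sham A and 0.25 for sham C. A fit that took such arrays as the same mouse called 3 enzymes at 24 h and 3 at 48 h in the difference between organs.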

Additional observations from a re-analysis of the deposited data

Results flagged for a closer look

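The changes of 4 enzymes against sham differed between kidney and liver by the test of the difference itself (limma, all 18 arrays, kidney minus liver, log2). At 24 h the difference was 4.97 for Kynu, 1.64 for Hpd and 2.51 for Got1. At 48 h it was 1.38 for Uroc1, 3.33 for Kynu and 2.43 for Hpd. The kidney readings of Kynu at 24 h and in sham mice include 1 and 2 recurring background readings, so the size of its differences is not exact. The Hpd arrays of the kidney spread more widely than those of the liver at 24 h (10.40 to 11.47 in kidney and 14.92 to 15.13 in liver) and at 48 h (10.44 to 12.27 in kidney and 14.55 to 14.63 in liver).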

How the results depend on the processing

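Over 61 member results and 1363 combinations of result and setting, 1241 kept their direction and side of the threshold, 31 newly passed it, 91 no longer passed it and 0 called changes reversed. Of 35 member calls 20 held in every setting tried. For liver at 48 h against sham, the counts of called members and of all called genes (2 and 1228 as reported) were 1 and 769 without the filter, 6 and 4728 with array weights, 1 and 605 with the replicate block, and 741 and 2515 genes with 6 and 18 arrays. Leaving out 1 array gave 1 to 3 members and 448 to 1599 genes. The wider list's 15 lower enzymes became 8 without the filter, 45 with array weights, 9 with the replicate block, 28 with 18 arrays and 5 to 21 without 1 array. For kidney at 24 h (1 and 637) there were 285 genes without the filter, 143 with the replicate block, 0 and 78 with 6 arrays, 2 and 376 with 18 arrays, and 0 to 1 members and 15 to 669 genes without 1 array. For kidney at 48 h (2 and 323) there were 131 genes without the filter, 1 member with the mean of sets, 1245 genes with array weights, 1 and 49 with the replicate block, 201 genes with 18 arrays, and 0 to 2 members and 29 to 469 genes without 1 array. For kidney 48 h against 24 h (3 and 193) there were 0 and 64 without the filter, 0 and 4 with the replicate block, 1 and 19 with 6 arrays, and 0 to 3 members and 1 to 162 genes without 1 array. The difference between organs at 48 h had 4578 genes with array weights (1564 as reported). What the letters mark within an organ is not stated, and the reason why calls were lost under the block was not tested. Fewer arrays leave fewer degrees of freedom, and no filter adds genes to the adjustment, but their part in these shifts was not tested. The cause of the other shifts was not tested either. Signals at the floor limit Hal, Tdo2 and Tat in kidney and Bcat1 in liver.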
